A study of Rattus norvegicus with 8 samples.

Results

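The bone morphogenetic protein (BMP) and growth differentiation factor (GDF) genes described here are the ligands *Bmp2*, *Bmp4*, *Bmp6*, *Gdf5*, *Gdf6*, and *Gdf10* and the secreted antagonists *Grem1* (gremlin 1), *Chrdl1* (chordin-like 1), and *Nog* (noggin). They were chosen by name, and these 9 genes were matched by symbol among the 32883 genes of the count table. Polyadenylated RNA of the right Achilles tendon was sequenced with a stranded library protocol in 8 wild-type male SD rats of 8 to 10 weeks. In the 12 h p.r. group (post-run), 4 rats ran for 1 h on a treadmill at an incline of 10° and 20 m/min and were killed 12 h later, and 4 naïve control (NC) rats stayed in their cages and were killed at the same time. The comparison asks what was different in the tendon 12 h after a single run. Airflow and a mild electric stimulus kept the rats running, so that the run and these stimuli cannot be told apart.

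BMPs and GDFs are dimeric ligands of the transforming growth factor–β superfamily. They bind type I and type II serine/threonine kinase receptors, which phosphorylate SMAD proteins that enter the nucleus with SMAD4 and induce targets such as the *Id* genes, while the antagonists hold ligands away from the receptors in the extracellular space. In tendon and its attachment to bone, BMP4 and the GDF5 subfamily are known from development, and BMP2 is known for inducing cartilage and bone.

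The libraries held 7350509 to 12951397 reads counted in genes, with a median of 8459358 in the 12 h p.r. group and 11866872 in the NC group. Values by rat are counts per 1000000 reads (CPM) of the library size after TMM scaling, and 1 read was worth 0.0755 to 0.132 CPM. Tenocyte markers were present in every rat, with *Tnmd* at 224 to 392 CPM and *Scx* at 20.3 to 60.6 CPM. Other tissue was not equal between rats. NC replicate 3 had the highest value of 10 of 12 cartilage and bone markers, followed in list mean by 12 h p.r. replicate 1, and 12 h p.r. replicate 3 had the highest value of 7 of the 8 skeletal muscle markers with reads and the lowest tenocyte marker mean. As the tissue was sequenced whole, fewer cells of a type and less RNA per cell cannot be told apart.

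All 9 genes had reads, and 8 of them passed the filter on low counts. Only *Gdf6* did not. No member passed a test between the groups. In the quasi-likelihood test of edgeR with Benjamini-Hochberg adjustment over 13937 genes, 0 of the 8 reached an adjusted p-value under 0.05 and 0 reached an unadjusted p-value under 0.05, and DESeq2 called 0. Over all genes, 0.00718% passed the adjusted threshold in edgeR, 9.51% had an unadjusted p-value under 0.05, and 0.685% passed the adjusted threshold in DESeq2. The groups overlapped for each of the 8 genes, and they were apart for 6.06% of all genes tested. With only 8 genes, 0 apart cannot be told from this share. The log2 fold change of 12 h p.r. against NC was above 0 for 4 genes and below 0 for 4, with a median of −0.11 beside 0.02 over all genes. In an exact permutation test of single genes, 4 rats against 4 cannot give a p-value below 0.0286. Such a p-value is the share of the 70 splits of these rats with a difference in means at least as large as that observed.

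**Figure D1:**
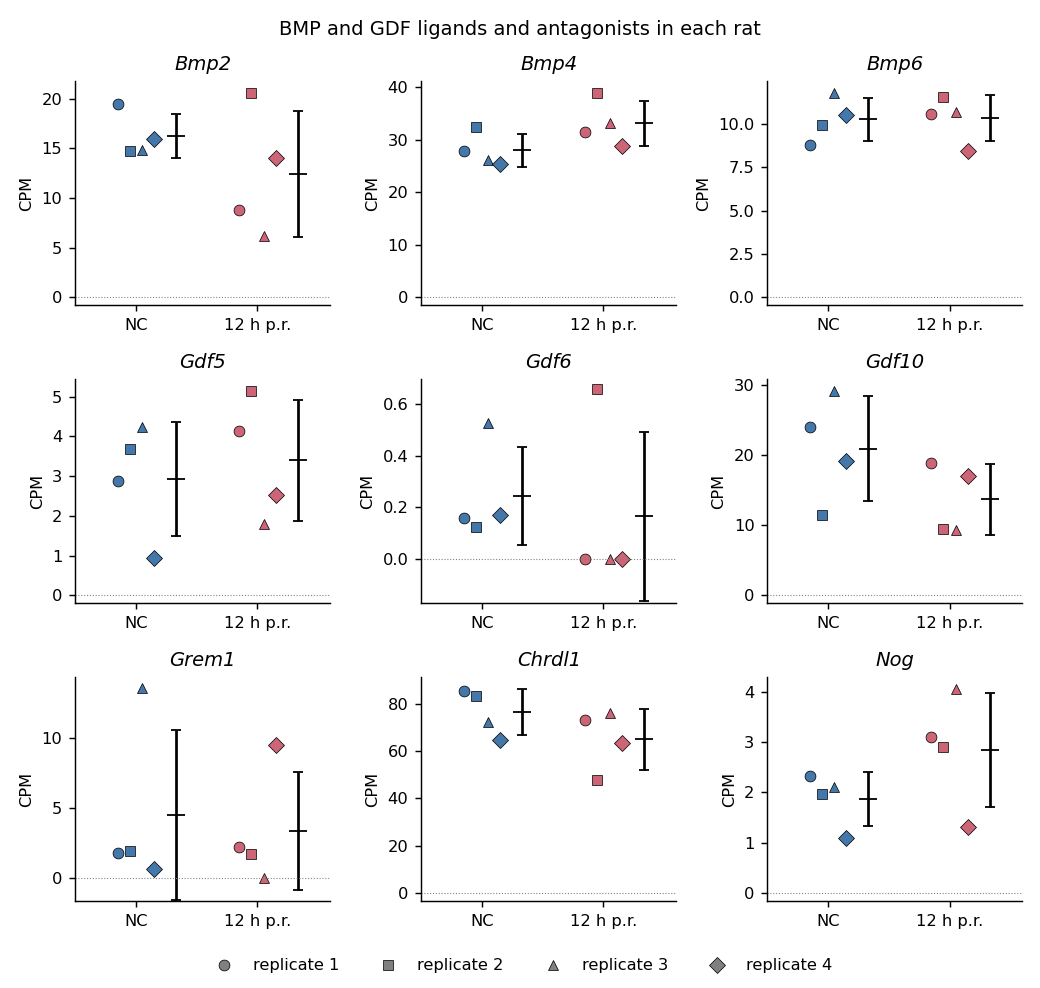
CPM (y axis, linear) of the 9 genes in each rat of the NC group (blue) and the 12 h p.r. group (red), with 1 symbol per replicate number and the mean ± SD of 4 rats to the right of each group. The groups overlap for all 9 genes, and the values of *Grem1* are highest in NC replicate 3 and 12 h p.r. replicate 4. Lower SD bars that pass 0 do so because the SD is larger than the mean.

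Among the ligands, *Bmp4* (ENSRNOG00000009694) encodes a ligand with roles in mesoderm patterning and in the tendon-bone attachment. It stood at 31.4, 38.9, 33.2, and 28.9 CPM in 12 h p.r. replicates 1 to 4 and at 27.9, 32.5, 26.2, and 25.4 CPM in NC replicates 1 to 4. Only NC replicate 2 lay within the range of the post-run rats, above replicates 1 and 4 of that group. The means were 33.1 ± 4.22 and 28.0 ± 3.17 CPM (SD, n = 4 each), a log2 fold change of 0.24 with a standard error (SE) of 0.12 and a 95% interval from −0.03 to 0.52. The adjusted p-value of edgeR was 0.566, and the exact permutation test gave p = 0.0857 (2-sided).

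*Bmp2* (ENSRNOG00000021276) encodes an osteoinductive ligand. It stood at 8.80, 20.6, 6.19, and 14.0 CPM in the post-run replicates 1 to 4 and at 19.5, 14.7, 14.9, and 15.97 CPM in the NC replicates. Post-run replicates 1, 3, and 4 were below every NC rat, while replicate 2 was above every NC rat. The coefficient of variation was 51.2% in the 12 h p.r. group and 13.6% in the NC group, a difference in spread that was not tested. The log2 fold change was −0.39 (SE 0.32, 95% interval −1.12 to 0.33), with an edgeR adjusted p-value of 0.728 and p = 0.257 in the exact permutation test. Its lowest rat, 12 h p.r. replicate 3, was the one with the highest skeletal muscle markers, at a list mean of 11.80 log2 CPM beside 6.46 to 10.02 in the other 7 rats, and their part in its level was not tested.

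*Gdf10* (ENSRNOG00000051993), also called BMP3B, encodes a divergent member of the family. Its levels were 18.9, 9.48, 9.28, and 17.1 CPM in post-run replicates 1 to 4 and 24.0, 11.5, 29.2, and 19.1 CPM in NC replicates 1 to 4. NC replicates 1, 3, and 4 were above every post-run rat, and NC replicate 2 lay among the post-run rats. Its log2 fold change of −0.62 (SE 0.33, 95% interval −1.35 to 0.12) was the farthest from 0 of the 8 genes, and the edgeR adjusted p-value was 0.581 (exact permutation p = 0.143). NC replicate 2 was thus the rat that made the groups overlap for both *Bmp4* and *Gdf10*.

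*Bmp6* (ENSRNOG00000013717), known for its role in iron balance through hepcidin, ranged from 8.45 to 11.6 CPM in the post-run rats and from 8.82 to 11.8 CPM in the NC rats, with a mean of 10.3 CPM in both groups (SD 1.34 and 1.24, n = 4 each). The log2 fold change was 0.01 (SE 0.15), and its 95% interval of −0.33 to 0.35 was the second narrowest after that of *Bmp4*. The sign of this fold change turned when any 1 of 12 h p.r. replicates 1 to 3 or NC replicates 1 and 2 was left out, with a lowest value of −0.060. The intervals of *Bmp4*, *Bmp6*, and *Chrdl1* lay within 1 log2 unit on either side of 0, and those of the other 5 genes did not.

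*Gdf5* (ENSRNOG00000050123), a ligand of joint and tendon development, stood at 4.14, 5.14, 1.79, and 2.53 CPM in the post-run replicates and at 2.89, 3.68, 4.23, and 0.935 CPM in the NC replicates. The groups overlapped over most of their range, with the lowest value in NC replicate 4 and the highest in 12 h p.r. replicate 2. The log2 fold change was 0.21 (SE 0.47, 95% interval −0.87 to 1.28, edgeR adjusted p = 0.917), and it was −0.092 without NC replicate 4 and −0.060 without 12 h p.r. replicate 2.

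*Gdf6* (ENSRNOG00000007810), its close relative, was near the limit of detection with 17 reads in all 8 rats. Post-run replicate 2 held 5 of them, post-run replicates 1, 3, and 4 held 0, and NC replicates 1 to 4 held 2, 1, 7, and 2 reads. A count of 0 allows up to 3 reads, which was 0.388, 0.357, and 0.282 CPM in those 3 rats, and this limit covers counting error only. No difference in *Gdf6* was detected at this depth (exact permutation p = 0.486).

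Among the antagonists, *Chrdl1* (ENSRNOG00000004330), which encodes a chordin-like binder of BMP4 and other ligands, had the most reads of the 9 genes (5695). It stood at 72.9, 47.6, 75.9, and 63.2 CPM in post-run replicates 1 to 4 and at 85.4, 83.0, 72.3, and 64.6 CPM in NC replicates 1 to 4. Post-run replicate 2 was the lowest rat and NC replicates 1 and 2 the highest, and the other 5 rats were interleaved. The log2 fold change was −0.23 (SE 0.16, 95% interval −0.59 to 0.12), with an edgeR adjusted p-value of 0.673 and p = 0.257 in the exact permutation test.

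*Nog* (ENSRNOG00000023683), the antagonist of BMP2, BMP4, and several GDFs, was low, at 3.11, 2.90, 4.05, and 1.31 CPM after the run and 2.32, 1.96, 2.11, and 1.10 CPM in the NC group. Replicate 4 was the lowest rat of each group, and post-run replicates 1 to 3 were above every NC rat. The log2 fold change was 0.58 (SE 0.37, 95% interval −0.26 to 1.43), the farthest above 0 of the members, with an edgeR adjusted p-value of 0.659 and p = 0.257 in the exact permutation test. It rested on 180 reads. In the RefSeq gene table of GRCr8, another build than that of the counts, *Nog* lies within a second gene, *Nogl1*, so that its reads may not all be its own.

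The third antagonist, *Grem1* (ENSRNOG00000026053), a ligand trap of BMP2 and BMP4, had the widest spread. It stood at 2.20, 1.71, 0, and 9.48 CPM in post-run replicates 1 to 4 and at 1.76, 1.96, 13.5, and 0.680 CPM in NC replicates 1 to 4. Each group held 1 high rat, NC replicate 3 with 179 reads and 12 h p.r. replicate 4 with 101 reads, and the other 6 rats held 0 to 22. The SD exceeded the mean in both groups, at 3.35 ± 4.196 and 4.48 ± 6.05 CPM (n = 4 each), and the log2 fold change of −0.40 (SE 1.11) had a 95% interval from −2.92 to 2.11 (edgeR adjusted p = 0.930, exact permutation p = 0.743). Without NC replicate 3 it was 1.23, without 12 h p.r. replicate 4 it was −1.81, and without 12 h p.r. replicate 3 it was 0.0064. The 0 of post-run replicate 3 allows up to 0.357 CPM.

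The rats high in *Grem1* were compared with the cartilage and bone markers. NC replicate 3 was also highest in *Col2a1*, the collagen of cartilage, with 594 CPM, in *Bglap* (osteocalcin) with 300.0 CPM, and in *Acan* (aggrecan) with 128 CPM. The second high rat, 12 h p.r. replicate 4, had *Acan* at 114 CPM but *Col2a1* at 6.57 CPM and *Bglap* at 0.188 CPM, while 12 h p.r. replicate 1 had *Col2a1* at 167 CPM with *Grem1* at 2.20 CPM. The summed level of the 12 markers was 116 to 1365 CPM in the post-run rats and 255 to 3273 CPM in the NC rats, and *Matn1* was at or near 0 in every rat. In 12 h p.r. replicate 3, where *Grem1* was at 0, *Acan* was lowest with 9.996 CPM and the muscle actin *Acta1* was highest. The part of these tissues in the level of *Grem1* was not tested.

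**Figure D2:**
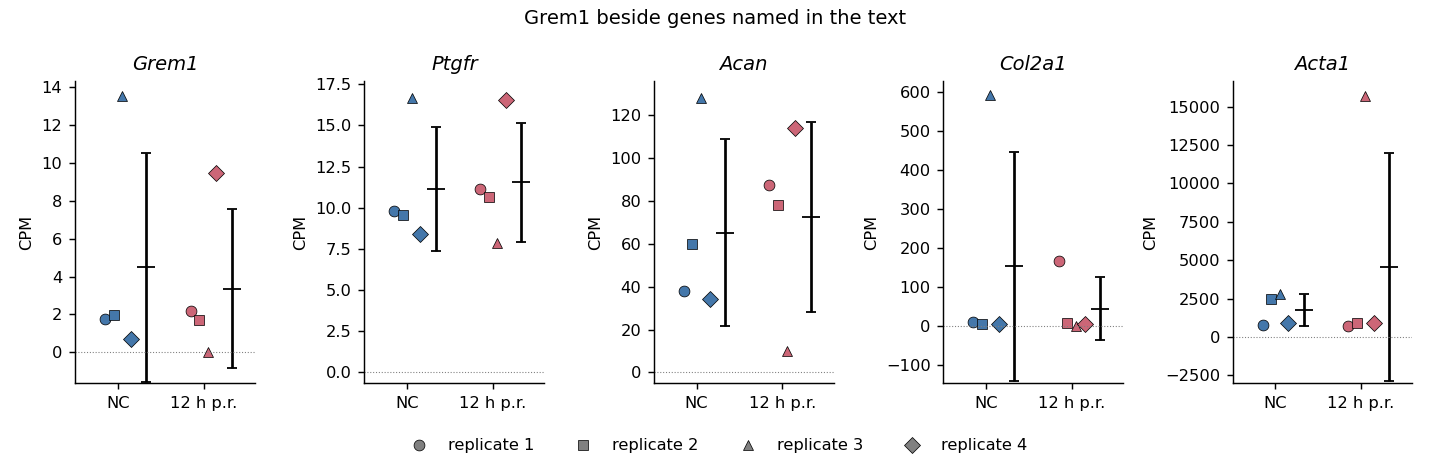
CPM (y axes, linear, 1 scale per panel) of *Grem1*, *Ptgfr*, *Acan*, *Col2a1*, and the muscle actin *Acta1* in each rat, with 1 symbol per replicate number and the mean ± SD of 4 rats beside each group. *Ptgfr*, like *Grem1*, is highest in NC replicate 3 and 12 h p.r. replicate 4, *Col2a1* in NC replicate 3 and 12 h p.r. replicate 1, and *Acta1* in 12 h p.r. replicate 3.

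**Figure D3:**
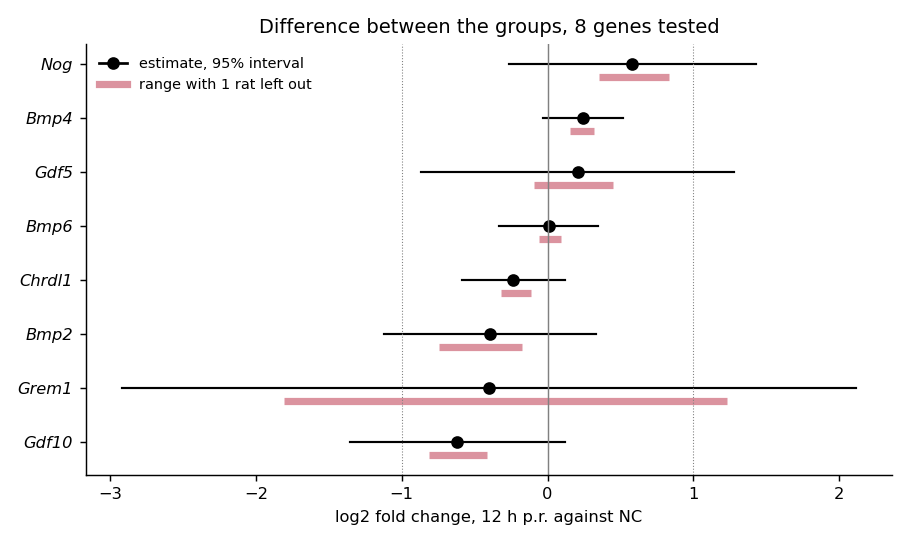
Log2 fold change of 12 h p.r. against NC (x axis) for the 8 genes tested in edgeR, with the 95% interval (black line) and the range of the estimates when each rat was left out in turn (red bar). Every interval includes 0, and the bars of *Bmp6*, *Gdf5*, and *Grem1* cross 0. The dotted lines mark a difference of 1 log2 unit.

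Single rats of the 12 h p.r. group also moved the log2 fold changes of the other members, in both directions. That of *Bmp2* was −0.74 without replicate 2, its highest rat, and −0.17 without replicate 3, its lowest. That of *Nog* was 0.83 without replicate 4 and 0.35 without replicate 3. Replicate 2, the lowest rat in *Chrdl1* and the highest in *Bmp4*, took *Chrdl1* to −0.11 and *Bmp4* to 0.16 when it was left out. Rats of the NC group moved the fold changes too. *Gdf10* was at −0.81 without NC replicate 2 and at −0.42 without NC replicate 3. *Bmp4* was at 0.32 without NC replicate 2, and *Nog* at 0.40 without NC replicate 4. The members' adjusted p-values stayed at 0.442 or above under every alternative run.

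Levels of different genes were compared per gene length, in the deposited FPKM (counts divided by gene length and by a depth factor for each rat). *Chrdl1* was the highest of the 9 genes with a mean of 17.1 ± 2.96 FPKM over the 8 rats (SD), followed by *Bmp4* with 14.1 ± 2.01. Below them came *Bmp6* (6.74 FPKM), *Gdf10* (5.60 FPKM), *Bmp2* (4.46 FPKM), *Gdf5* (2.12 FPKM), *Nog* (1.44 FPKM), *Grem1* (1.02 FPKM), and *Gdf6* (0.0582 FPKM). *Bmp4* was above *Bmp6* in 8 of 8 rats, and theirs were the only neighbouring ranges in this order that did not overlap. *Chrdl1* was above *Bmp4* in 7 of 8 rats, with 12 h p.r. replicate 2 as the exception, and the remaining neighbours kept their order in 6 or 7 of 8 rats. By their means in the NC group alone, *Gdf10* came before *Bmp6* and *Grem1* before *Nog*. *Gdf10* was above *Bmp6* only in NC replicates 1 and 3, and *Grem1* was above *Nog* only in NC replicate 3 and 12 h p.r. replicate 4.

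**Figure D4:**
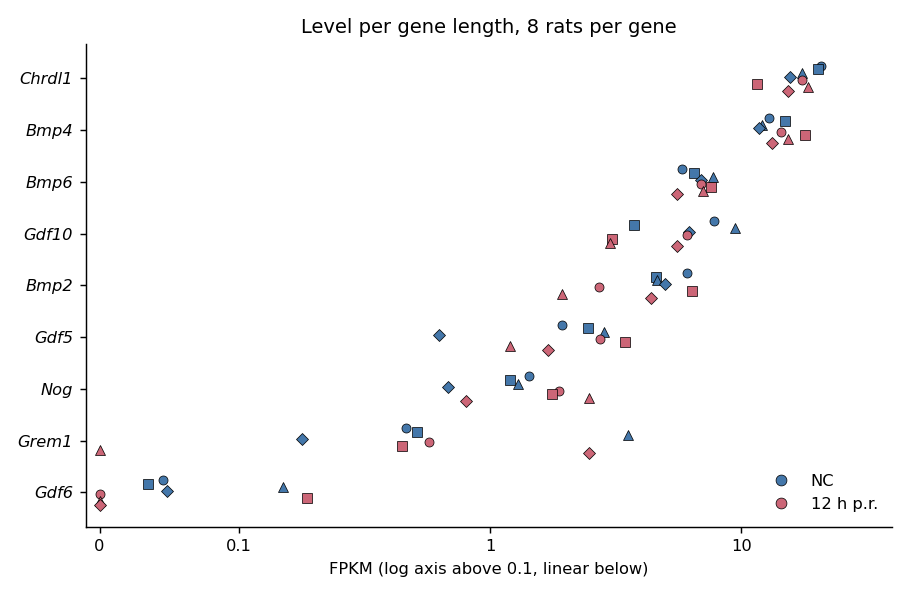
FPKM (x axis, logarithmic above 0.1 and linear below) of the 9 genes in the 4 NC rats (blue) and the 4 rats of the 12 h p.r. group (red), with genes ordered by their mean over 8 rats and 1 symbol shape per replicate number. *Chrdl1* and *Bmp4* lie above 10 FPKM in every rat, and *Gdf6* lies at or near 0.

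The 6 ligands summed to 32.5 ± 4.36 FPKM in the 12 h p.r. group and 33.6 ± 2.74 FPKM in the NC group, and the 3 antagonists to 18.3 ± 3.19 and 20.9 ± 2.89 FPKM (SD, n = 4 each). The ratio of the 2 sums within a rat was 1.64, 2.81, 1.36, and 1.64 after the run and 1.52, 1.48, 1.65, and 1.84 in the NC group, with post-run rats at both ends of the range. *Chrdl1* made up 85.5 ± 2.86% and 89.3 ± 7.37% of the antagonist sum in the 2 groups. *Bmp4* made up 47.0 ± 4.73% and 38.7 ± 5.66% of the ligand sum.

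The ratio of *Bmp4* to *Chrdl1*, chosen after its values were seen, was 0.821, 1.55, 0.832, and 0.870 in post-run replicates 1 to 4 and 0.621, 0.744, 0.690, and 0.748 in NC replicates 1 to 4, with no overlap. It was the only one of the 28 pairs of tested members (3.57%) whose within-rat ratio did not overlap between the groups. The same held for 5.24% of all pairs of genes tested, so that the members' share was no higher than this background.

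**Figure D5:**
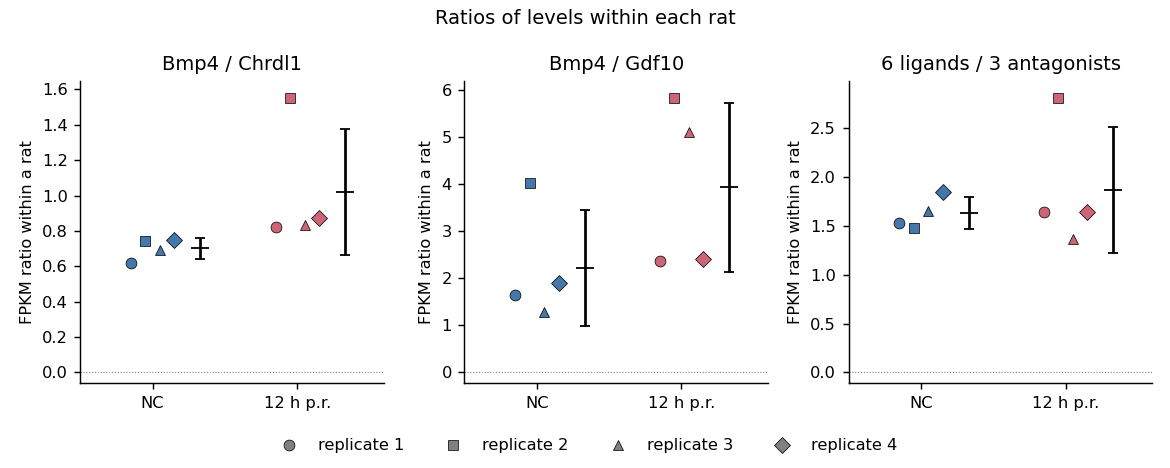
Ratio of FPKM values within each rat (y axis, linear) for *Bmp4* to *Chrdl1*, *Bmp4* to *Gdf10*, and the sum of 6 ligands to the sum of 3 antagonists, in the NC group (blue) and the 12 h p.r. group (red), with the mean ± SD of 4 rats. The groups do not overlap for *Bmp4* to *Chrdl1*, and 12 h p.r. replicate 2 is the highest rat in all 3 panels.

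Across rats, *Bmp4* and *Gdf10* ran opposite to each other. Their log2 CPM had Pearson's r = −0.84 and Spearman's rho = −0.88 over the 8 rats, r = −0.92 over the 6 rats left without those farthest from the median of *Bmp4*, and r = −0.79 and −0.76 within the NC and 12 h p.r. groups of 4. Among the 28 pairs of members, this was the only one past 0.7 in size, and the highest positive r was 0.64, for *Bmp4* and *Nog*. It is described because it was the most extreme of the 28. The share of all pairs of genes past this size was not counted, so the pair cannot be set against a background. These values are descriptions, since the points of both genes come from the same libraries with the same depth and scaling.

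For each of the 8 genes, the genes most like it were taken as the 2 with the highest r of log2 CPM over the 8 rats out of all genes tested. *Bmp2* was followed by *Fbxo8* (r = 0.99) and *Ufl1* (0.97), *Bmp4* by *Bcor* (0.97) and *Nprl3* (0.94), and *Bmp6* by *Tmem131* (0.97) and *Ino80d* (0.94). *Gdf5* was closest to *Twist1* (0.96), which encodes a transcription factor of mesenchyme, and to *Eps8l1* (0.95), and *Gdf10* to *Htr1b* (0.98) and *Hhipl1* (0.96). *Chrdl1* was followed by *Mrps7* (0.98) and *Ces1d* (0.97), and *Nog* by AABR07027575.1 (0.95) and *Cers6* (0.94). *Grem1* was closest to *Snrpa* and *Ptgfr*, both at 0.97, and r with *Ptgfr*, the receptor of prostaglandin F2α, was 0.99 after the group means were removed. Each r is the highest of many over 8 rats that share library and depth.

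The rest of the pathway was listed by role, 68 genes outside the members, of which 51 passed the filter. None passed the adjusted threshold in edgeR, 10 of the 51 (19.6%) had an unadjusted p-value under 0.05, 6 of them higher and 4 lower after the run, and DESeq2 called 3. The share of all genes at the same unadjusted p-value is the 9.51% given above, and DESeq2 called 0.685% of all genes. As the gene lists were chosen with earlier results of these data known, the share of the pathway is a description and not a test.

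Of 15 other BMP and GDF ligands, 5 were tested and 0 had an unadjusted p-value under 0.05 in edgeR, with a median log2 fold change of −0.05. DESeq2 gave 1 such gene, *Bmp7*, which did not pass the filter on low counts here. In edgeR without that filter, its unadjusted p-value was 0.0103. *Bmp5* was the highest of them with 7.55 FPKM, above *Bmp6*, and differed by −0.04 on the log2 scale (SE 0.18). *Gdf11*, next with 5.49 FPKM, had a log2 fold change of 0.42 (SE 0.33, edgeR adjusted p = 0.715), and its highest rat was 12 h p.r. replicate 3 at 46.8 CPM beside 15.9 to 22.4 CPM in the others.

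Of 20 other secreted antagonists and modulators, 15 were tested, and 2 of them, both lower after the run, had an unadjusted p-value under 0.05. *Tsku* (tsukushi), a secreted proteoglycan that binds BMPs, was at 31.9 to 35.2 CPM in the post-run rats and 37.0 to 51.1 CPM in the NC rats, without overlap, with a log2 fold change of −0.42 (SE 0.11, edgeR adjusted p = 0.421). *Bmper*, a modulator that binds BMPs, was at 7.55 ± 1.75 and 15.2 ± 6.56 CPM (SD, n = 4 each; log2 fold change −1.01, SE 0.33, edgeR adjusted p = 0.433), and NC replicate 2 was again the control rat within the post-run range. The most abundant of the list were *Nbl1* (DAN), with 288 FPKM, and *Fstl1* (follistatin-like 1), with 107 FPKM. Their log2 fold changes were 0.11 (SE 0.20) and −0.01 (SE 0.17).

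All 14 receptors and coreceptors were tested, with a median log2 fold change of −0.03. *Eng* (endoglin), a coreceptor of BMP9 and TGF-β in endothelial cells, was at 294, 239, 320, and 293 CPM in post-run replicates 1 to 4 and at 195, 206, 218, and 192 CPM in the NC replicates, without overlap. Its log2 fold change was 0.50 (SE 0.11), with an adjusted p-value of 0.385 in edgeR and 0.00846 in DESeq2. The mean of 7 endothelial markers with reads was 7.40 to 7.66 log2 CPM in the post-run rats and 7.43 to 7.59 in the NC rats. The markers in it did not move as one. *Tie1* was at 266 to 316 CPM in the post-run rats and 221 to 258 CPM in the NC rats, without overlap, *Emcn* was at 161 to 237 and 214 to 305 CPM, and the groups overlapped for *Emcn* and the other 5. The part of endothelial cells in the level of *Eng* was not tested. *Acvr2b*, a type II receptor, had a log2 fold change of 1.21 (SE 0.40, edgeR adjusted p = 0.434) on 99 reads. On the other side, *Tgfbr3* (betaglycan) was at 204 to 216 CPM in the post-run rats and 225 to 309 CPM in the NC rats (log2 fold change −0.33, SE 0.12, edgeR adjusted p = 0.452). *Acvr2a* was the fourth receptor with an unadjusted p-value under 0.05, and it was lower after the run.

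Of the 8 genes of SMADs and their ubiquitin ligases, 7 were tested. *Smad6*, an inhibitory SMAD and itself a target of BMP signaling, was at 11.3, 11.3, 9.28, and 11.5 CPM in the post-run rats and at 5.93, 6.75, 5.89, and 5.18 CPM in the NC rats. All post-run rats were above all NC rats, and the log2 fold change was 0.87 (SE 0.15), with an adjusted p-value of 0.309 in edgeR and 0.00334 in DESeq2. It was the only gene of the list with an unadjusted p-value under 0.05. *Smad1* and *Smad4*, a receptor-activated SMAD and the common SMAD, were the most abundant at 19.5 and 18.5 FPKM, with log2 fold changes of −0.03 (SE 0.13) and 0.16 (SE 0.09), and the ubiquitin ligase *Smurf2* stood at 0.16 (SE 0.09).

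Of 11 transcriptional targets, 10 were tested, and 3 had an unadjusted p-value under 0.05, all of them higher after the run. The median log2 fold change was 0.24. *Atoh8*, which encodes a transcription factor, had the smallest p-value of the pathway, at 17.2, 16.7, 19.4, and 16.5 CPM in the post-run rats and 8.26, 6.50, 9.14, and 9.35 CPM in the NC rats. Its log2 fold change was 1.07 (SE 0.14), with an adjusted p-value of 0.118 in edgeR and 2.91e-06 in DESeq2. *Id4* and *Id3*, inhibitors of basic helix-loop-helix factors, had log2 fold changes of 0.33 (SE 0.09, edgeR adjusted p = 0.432) and 0.35 (SE 0.13, edgeR adjusted p = 0.464). *Id1*, as abundant as *Id3* at 186 FPKM, had a log2 fold change of 0.07 (SE 0.16). DESeq2, which called *Atoh8*, *Smad6*, and *Eng*, called none of the 9 members.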

How the data were processed

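Per the submitters' processing notes and the methods of the study, the authors aligned reads to Rnor_6.0 with HISAT2 2.1.0 (strand-specific), assigned them to Ensembl genes by featureCounts 1.6.3, and normalized with DESeq2 1.30.1. How multi-mapped reads were counted, and whether counting used the strand, is not given in the sources used here. The counts were deposited unnormalized, as whole numbers of reads for each gene in each rat. The FPKM values deposited by the authors are counts over gene length and 1 factor per rat, and these factors equal the size factors of DESeq2. The authors' table of log2 fold changes, p-values, and adjusted p-values was not used, and 0 value columns were left unmapped.

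Groups and replicate numbers came from the sample labels, and no 2 libraries of the same group were duplicates. Counts were filtered with filterByExpr, scaled by TMM, and tested with the quasi-likelihood test of edgeR 4.0.16, with Benjamini-Hochberg adjustment over 13937 genes. Exact permutation tests (2-sided, 70 splits) used log2(CPM + 0.5). In counts simulated from these rats, with 200 of 13754 genes changed, edgeR recovered 45.0% of changes of 1 log2 unit and 90.0% of changes of 2, with 6 false calls, while DESeq2 recovered 60.0% and 92.0%, with 25 false calls and 13930 genes. Alternatives were DESeq2 1.42.0, other scaling factors and filters, limma 3.58.1 on log2(FPKM + 1) and log2(FPKM + 0.1), marker covariates, a replicate block, and leaving out rats. All steps ran in R 4.3.3 or Python 3.11.15.

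The members, gene lists, and tests were chosen with earlier results of these data known. Besides the members and markers, the genes named are, per pathway list, the 2 tested genes with the smallest p-value and the 2 with the highest FPKM, and for each member the 2 genes most correlated with it. Any other gene was named after its values were seen, including *Acvr2a*. No coordinates are given, since the gene table at hand is of another build (GRCr8).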

Additional observations from a re-analysis of the deposited data

Results flagged for a closer look

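The members and the pathway genes named by the rule for the pathway lists gave 54 groups of 4 rats. These were searched for a rat far from the other 3 on the scale of log2(CPM + 0.5). The search found 4, where chance gives about 1 in 20 groups (2.7 of 54). Pathway genes named after their values were seen were not searched. *Gdf6* stood out in both groups on few reads: 12 h p.r. replicate 2 was at 0.659 CPM while the other post-run rats were at 0, so that any read at all would have set it apart, and NC replicate 3 was at 0.529 CPM beside 0.123 to 0.170 CPM in the other NC rats. *Fstl1* was lowest in NC replicate 2, at 234 CPM beside 357 to 380 CPM. *Smad6* was lowest in 12 h p.r. replicate 3, at 9.28 CPM beside 11.3 to 11.5 CPM, and was still above every NC rat. On the CPM scale itself, searched after seeing the data, 5 were found, the same 4 and *Grem1* in NC replicate 3, at 13.5 CPM beside 0.680 to 1.96 CPM in the other NC rats.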

How the results depend on the processing

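Of 169 member values under 21 alternatives, 157 kept the direction of the log2 fold change and 12 reversed, all of *Bmp6*, *Gdf5*, or *Grem1*. *Bmp6* was −0.0045 with DESeq2 and −0.060 to 0.095 with 1 rat left out, and *Gdf5* was −0.092 to 0.45 with 1 rat left out. *Grem1* was −1.81 to 1.23 with 1 rat left out, 0.77 with the cartilage and bone marker mean as a covariate, and 1.39 without both rats highest in these markers (NC replicate 3 and 12 h p.r. replicate 1), an alternative chosen after seeing the data. No alternative gave a member an adjusted p-value under 0.05. The count of members with an unadjusted p-value under 0.05 was 0 to 2 with 1 rat left out: *Gdf10* without 12 h p.r. replicate 1, *Bmp2* without 12 h p.r. replicate 2, *Bmp4* and *Nog* without 12 h p.r. replicate 4, and *Bmp4* and *Gdf10* without NC replicate 2. It was 1 (*Nog*) without both rats highest in *Grem1*, also chosen after seeing the data. The count of members without overlap was 0 to 2 with 1 rat left out. The shares of all genes given above are for the full set of rats. None is given for fewer rats, so these counts have no background beside them. Same-numbered rats did not deviate together (correlations of −0.20 to 0.13, with 1 of 4 closest to its own number). No pairing by replicate number was thus seen, though so few pairs cannot exclude one. With the replicate block, 0 members had an unadjusted p-value under 0.05 in edgeR. The lowest was 0.051 for *Bmp4*, beside 0.076 without the block. The receptors with an unadjusted p-value under 0.05 went from 4 to 2 with the block, as they did without NC replicate 4. Depth limits *Gdf6* (17 reads) most, followed by *Nog* (180 reads).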

Other observations

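Other pathway genes add values outside the comparison. Apart from *Bmp15*, which was named by the rule for the pathway lists, they were chosen after their values were seen. *Bmp15*, known as an oocyte ligand, had 660 reads and stood at 6.32 to 9.94 CPM in all 8 rats (2.69 FPKM), with a log2 fold change of −0.16 (SE 0.17). *Bmp7*, an osteogenic ligand, did not pass the filter on low counts with 81 reads, at 0.518, 0, 0.119, and 0.282 CPM in 12 h p.r. replicates 1 to 4 and 3.37, 0.245, 1.28, and 1.02 CPM in NC replicates 1 to 4. *Bmp8a* and *Sost*, the latter an osteocyte gene, were highest in NC replicate 3, at 4.61 and 4.08 CPM, the rat with the highest cartilage and bone markers. *Sost* was at 0.259 CPM in 12 h p.r. replicate 1 and at 0 in the other 6 rats. *Smad9*, a receptor-activated SMAD of the BMP branch, had 4 reads in all 8 rats.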
